A study of Homo sapiens with 4 samples.

Results

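The absorptive differentiation genes examined here were 10 genes: 7 markers of absorptive gut epithelium (FABP1, LGALS4, VIL1, CDH17, ALPI, ANPEP and DPP4) and 3 adhesion genes of the carcinoembryonic antigen (CEA) family (CEACAM1, CEACAM5 and CEACAM6). They were taken by name, and every probe set that the HG-U95Av2 array annotation gives to them alone was used, which came to 12 of the 12626 probe sets on the array. No member (0 probe sets) was annotated together with another gene. RNA came from LS180, an established human colon carcinoma line. The RBM35A+ cells carry a Tet-off construct, in which removal of doxycycline switches on RBM35A, the older name of the epithelial splicing regulator ESRP1. Doxycycline had been withheld from RBM35A+ cells for 6 days or longer. RBM35A− cells grew with doxycycline and are called parental in the labels, which do not say whether they carried the construct or whether the RBM35A+ cells came from 1 clone. Total RNA (TRIZOL) and polysomal RNA, meaning transcripts bound by several ribosomes and collected from sucrose gradients, were hybridized from each state, giving 4 arrays with 1 per combination of state and fraction. Doxycycline and RBM35A state cannot be told apart on these arrays, nor can the construct and state if RBM35A− cells lacked it. Neither can RNA fraction and extraction method.

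Absorptive enterocytes and colonocytes carry a brush border of actin-filled microvilli. In enterocytes its membrane holds digestive peptidases, phosphatases and disaccharidases. Cytosolic carriers take up the absorbed fatty acids, and cadherins and CEA family proteins sit on the lateral and apical surface. These genes are switched on as cells leave the crypt, under transcription factors such as CDX2, and colon carcinoma lines retain them to different extents.

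All values are log2 output of the GCRMA method as run by the authors, which corrects each probe's background and summarises the probes of a set. A floor of 5 was set, below which a probe set was taken as not measured. With 1 array per group no difference has a replicate check, and none has a p-value except where an additive model is named. The error measure used is the disagreement between probe sets of the same gene, whose SD for the difference of 1 probe set was 0.188 in total RNA and 0.195 in polysomal RNA (339 genes with at least 2 measured probe sets). It covers differences between probes and not between cultures. RBM35A itself had 0 annotated probe sets, so the state is known from the labels alone. All 9 epithelial markers (EPCAM, KRT8, KRT18, KRT19, CDH1, CLDN3, CLDN4, CLDN7 and JUP) were above the floor. Of the markers of other cells on the array, 1 of 15 haematopoietic (HBB), 1 of 16 fibroblast and endothelial (COL1A1) and 0 of 11 enteroendocrine markers were.

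Upstream sequence was available from RefSeq (GRCh38.p14) for 8 of the 10 members. The 250 bases before the annotated start are given for 3 genes: FABP1, which had the largest total RNA difference among the members, and the paralogues CEACAM5 and CEACAM6, which had unlike polysomal differences. CEACAM5 and CEACAM6 are adjacent on chromosome 19, with 0 annotated genes between them. Capitals mark TATAAA in FABP1 and CACGTG in the CEACAM genes, and each sequence reads 5′ to 3′ on the gene's own strand.
FABP1 (chr2:88128063-88128312, minus strand): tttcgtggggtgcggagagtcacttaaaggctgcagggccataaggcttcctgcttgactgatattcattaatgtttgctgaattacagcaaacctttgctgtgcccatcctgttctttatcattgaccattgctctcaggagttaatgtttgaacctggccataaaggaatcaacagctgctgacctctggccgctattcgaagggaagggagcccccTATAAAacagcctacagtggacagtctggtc
CEACAM5 (chr19:41708376-41708625, plus strand): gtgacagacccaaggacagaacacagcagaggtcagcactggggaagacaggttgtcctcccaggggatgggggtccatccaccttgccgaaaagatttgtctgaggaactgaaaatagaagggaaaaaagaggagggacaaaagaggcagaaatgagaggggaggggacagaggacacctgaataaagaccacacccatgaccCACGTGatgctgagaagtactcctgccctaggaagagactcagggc
CEACAM6 (chr19:41755280-41755529, plus strand): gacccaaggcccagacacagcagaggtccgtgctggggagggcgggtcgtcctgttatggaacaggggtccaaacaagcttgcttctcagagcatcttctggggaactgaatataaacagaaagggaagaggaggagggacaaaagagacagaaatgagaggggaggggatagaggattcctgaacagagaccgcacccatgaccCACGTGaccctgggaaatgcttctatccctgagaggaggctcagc

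In the FABP1 window, TATAAA lies 31 to 26 bases before the start. On both strands, TATAAA occurred in 10.7% of all 35116 windows of 250 bases in the RefSeq table and in 2 of the 8 members. The other one was CEACAM6, where it lies 139 to 134 bases before the start and is not in capitals above. The CEACAM5 and CEACAM6 windows were identical at 74.6% of 260 aligned positions and shared a run of 21 bases. CEACAM1 had 66.2% identity to CEACAM5 and 68.2% to CEACAM6, while FABP1 had 45.5% identity to CEACAM5. The E-box CACGTG lies 46 to 41 bases before the start of CEACAM5 and 45 to 40 bases before that of CEACAM6. It occurred in 6.34% of all windows and in 3 of the 8 members, the other one being DPP4, and these letters were not in the CEACAM1 window. These matches are descriptions of sequence, and no binding was measured.

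Of the 10 members, 7 were at or above the floor and were analysed: FABP1, LGALS4, VIL1, CDH17, CEACAM1, CEACAM5 and CEACAM6. Each of these 7 was above the floor on all 4 arrays, so none entered through 1 group alone. Across the array 3588 of 8225 genes (43.6%) were analysed. The 3 members not measured were the brush border ectoenzymes. ALPI, intestinal alkaline phosphatase, read 2.23 in RBM35A− and 2.24 in RBM35A+ cells in total RNA, and 2.22 on both polysomal arrays, at the bottom of the scale. ANPEP, the apical aminopeptidase, read 2.22 on all 4 arrays. DPP4, a dipeptidyl peptidase of the apical membrane, read 3.31 and 3.29 in total RNA and 3.45 and 3.60 in polysomal RNA, under the floor on all 4 arrays. The probe sets of these 3 genes were therefore below the floor in both states, and no difference between states can be read from them. Whether the transcripts were absent cannot be told from this. For CEACAM5, 1 probe set likewise read 2.22 on all 4 arrays while the other was above the floor.

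**Figure D1:**
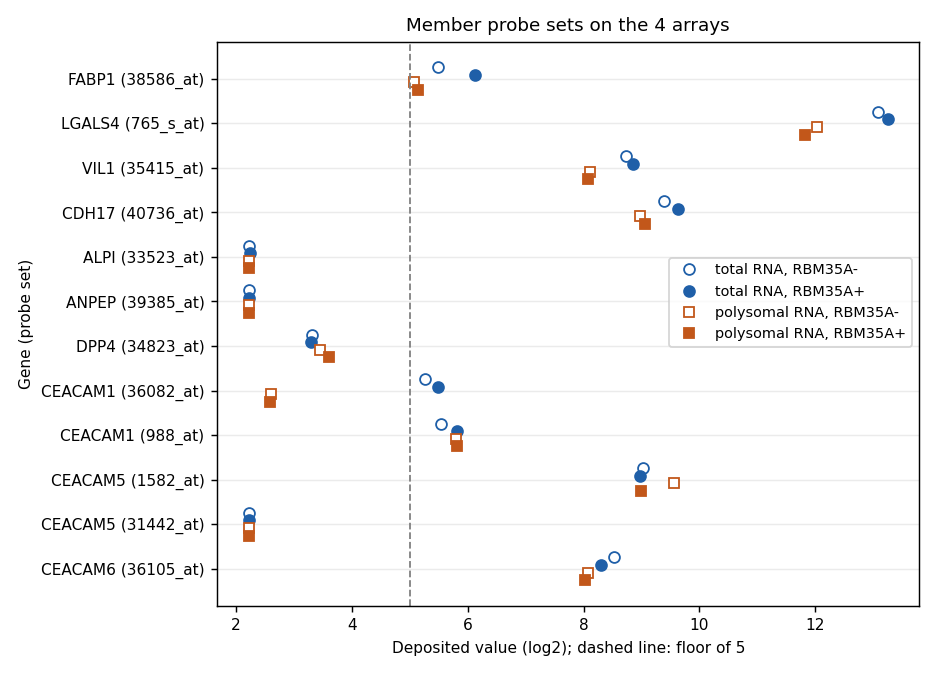
Deposited log2 value of each of the 12 member probe sets (rows, gene and probe set) on each of the 4 arrays, 1 point per array; circles are total RNA, squares polysomal RNA, open symbols RBM35A− and filled symbols RBM35A+ cells. The ALPI, ANPEP and DPP4 probe sets and 1 of the CEACAM5 probe sets lie below the dashed floor of 5 on every array, and FABP1 and CEACAM1 lie closest above it.

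In total RNA the largest member difference was that of FABP1, the liver-type fatty acid binding protein that carries long-chain fatty acids in the enterocyte cytosol. It read 5.48 in RBM35A− and 6.12 in RBM35A+ cells, a 1.56-fold higher value in RBM35A+ (difference 0.64, or 3.41 times the SD of 1 probe set). FABP1 was the 1 member at 1.5-fold in total RNA, with 1 of 7 analysed members higher and 0 lower. Over all 3588 genes 1.42% were 1.5-fold higher and 0.613% lower, and 31 genes were higher by more than FABP1. The gene lay near the floor, where differences were more variable: among the 647 genes with a mean total RNA level between 5 and 6, 3.55% differed by 1.5-fold in either direction, against 0.832% of the 601 genes above 10. With a floor of 6 the FABP1 difference read 0.12.

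The other absorptive markers were slightly higher in total RNA of RBM35A+ cells, all by less than 1.5-fold. CDH17, the liver-intestine cadherin of the lateral membrane, read 9.40 in RBM35A− and 9.63 in RBM35A+ cells (0.23, 1.17-fold). LGALS4, the galectin that binds glycolipid-rich apical rafts, read 13.09 and 13.25 (0.16, 1.12-fold). VIL1, villin, which bundles the actin of microvilli, read 8.74 and 8.85 (0.12, 1.09-fold). The differences of LGALS4 and VIL1 were under the SD of 1 probe set and that of CDH17 was 1.23 times it.

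Among the CEA genes, CEACAM1 and the other 2 lay on opposite sides of 0 in total RNA. CEACAM1, a transmembrane adhesion protein whose transcript is spliced into several forms, read 5.54 and 5.81 (0.27, 1.21-fold) at the probe set that represents it, the one with the higher mean. Its other probe set read 5.27 and 5.48, a difference of 0.21, so both probe sets were higher in RBM35A+ cells by a similar amount. CEACAM6, which is held in the membrane by a lipid anchor, read 8.52 and 8.30 (−0.22). CEACAM5, carcinoembryonic antigen itself and likewise lipid-anchored, read 9.03 and 8.98 (−0.06). The CEACAM5 difference was well within the SD of 1 probe set (0.29 times it), while those of CEACAM6 and CEACAM1 were 1.18 and 1.46 times it. In all, 5 of the 7 analysed members were above 0 in total RNA, where 46.5% of all genes were. Genes whose total RNA values were both raised to 5 have a difference fixed at 0. Such genes count among all genes and lower that percentage, while the 7 members were above 5 on every array. The members' median was 0.16, with a range from −0.22 to 0.64, and the median over all genes was 0.00.

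In polysomal RNA the largest member difference was that of CEACAM5, and it was below 0. CEACAM5 read 9.56 in RBM35A− and 8.99 in RBM35A+ cells, a difference of −0.56 (1.48-fold lower, 2.88 times the SD of 1 probe set). Only 47 of the 3588 genes were lower by more. This rests on 1 probe set, since the other one for CEACAM5 read 2.22 on all 4 arrays. CEACAM6 read 8.08 and 8.03 on the same arrays (−0.05), so the polysomal RBM35A+ array was lower for CEACAM5 and nearly level for its neighbour. Probe sequences were not used here, so whether probes of CEACAM1, CEACAM5 and CEACAM6 also bind transcripts of the others was not tested. CEACAM1 read 5.79 and 5.81 (0.02) at its representing probe set, while the other was below the floor on both polysomal arrays at 2.60 and 2.58.

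The remaining members were nearly level between the polysomal arrays. LGALS4 read 12.04 and 11.83 (−0.21), the next largest value below 0. VIL1 read 8.12 and 8.07 (−0.05), CDH17 read 8.98 and 9.06 (0.08), and FABP1 read 5.06 and 5.13 (0.07), just above the floor on both. At 1.5-fold 0 of 7 members were higher and 0 lower in polysomal RNA, where 0.725% of all genes were higher and 1.23% lower. Differences of 5 of the 7 were within the SD of 1 probe set, and the members' median was −0.05 beside 0.01 over all genes.

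Control probe sets at transcript 5′ ends differed between the polysomal arrays as well. The beta-actin 5′ probe set read 10.29 in RBM35A− and 9.42 in RBM35A+ cells (−0.86) and the GAPDH 5′ probe set 12.82 and 12.03 (−0.79). Their 3′ probe sets differed by −0.02 and −0.13. On the total RNA arrays the 5′ differences were −0.05 and −0.03. The CEACAM5 value is of the same sign as the 5′ controls. Where the CEACAM5 probes lie along the transcript was not used here, and the part of 5′ signal in this result was not tested.

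**Figure D2:**
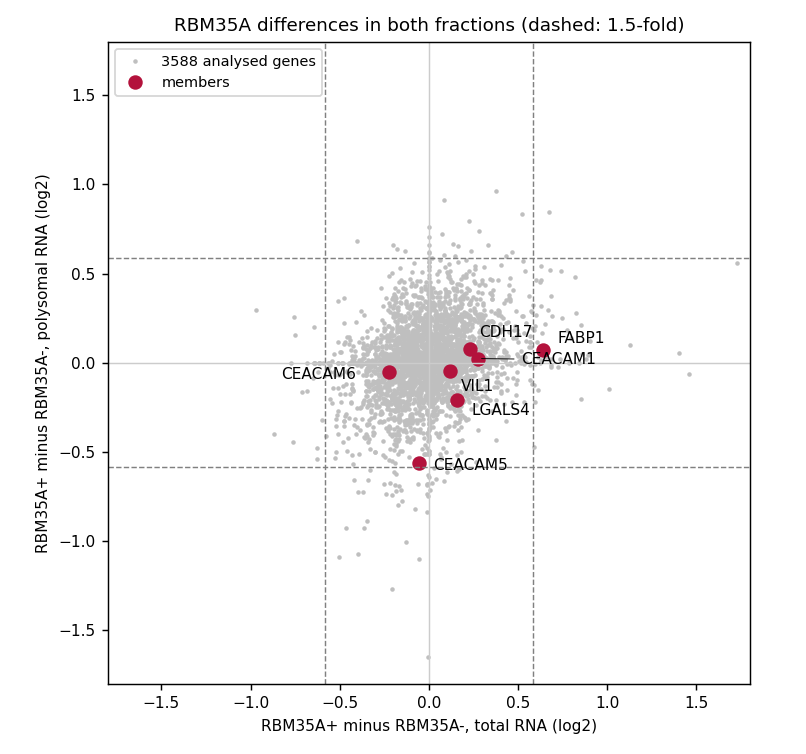
RBM35A+ minus RBM35A− in total RNA (horizontal axis, log2) against the same difference in polysomal RNA (vertical axis, log2) for 3588 analysed genes (grey) and the 7 analysed members (red, 1 point per gene); dashed lines mark 1.5-fold. FABP1 lies beyond the line in total RNA at 0.64 and near 0 in polysomal RNA at 0.07, while CEACAM5 lies at −0.06 and −0.56.

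An additive model of state and fraction, fitted to all 3588 genes with limma, gave the mean difference over both fractions. It has 1 residual degree of freedom, which holds the disagreement between fractions, and so measures agreement between the fractions, not the spread between cultures. Of the 7 members 0 had an adjusted p under 0.05, and the same held for all genes (0%). At an unadjusted p under 0.05 there were 0 members and 369 genes (10.3%). FABP1 had a mean difference of 0.36 (SE 0.152, limma adjusted p = 0.483), from 0.64 in total and 0.07 in polysomal RNA. CEACAM5 had a mean difference of −0.31 (SE 0.142, limma adjusted p = 0.519), from −0.06 in total and −0.56 in polysomal RNA.

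The RBM35A difference was lower in polysomal than in total RNA for 6 of the 7 members, beside 47.4% of all genes, with CEACAM6 as the exception. The difference of differences was −0.57 for FABP1, −0.51 for CEACAM5, −0.37 for LGALS4, −0.25 for CEACAM1, −0.17 for VIL1, −0.16 for CDH17 and 0.17 for CEACAM6. For FABP1 it came from the total RNA arrays and for CEACAM5 from the polysomal arrays. The members' median was −0.25, beside 0.01 over all genes. At 1.5-fold 0 members were past the threshold in either direction, where 1.31% of genes were higher and 2.12% lower. The SD of this quantity for 1 probe set was 0.239, and 3 of the 7 members lay within it. No test of it is possible with 1 array per group. The 5′ signal of the polysomal control probe sets lay on the same side of 0, as given above, and its part was not tested.

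Polysomal RNA was also compared with total RNA within each state. In the labels the molecule is polyA RNA for both polysomal samples but total RNA for the remaining pair, although the protocols mention no poly(A) selection, so such a step and the polysomal fraction cannot be told apart. The authors' values of the fractions were normalized apart, so each gene is read against the median of all genes, which was 0.09. LGALS4 lay furthest below: polysomal minus total was −1.06 in RBM35A− and −1.43 in RBM35A+ cells. It was the 1 member of 7 at 2-fold lower over the mean of both states (−1.24), where 7.64% of all genes were 2-fold lower and 13.7% higher. LGALS4 rests on 1 probe set, whose name places it among those that may share sequence with other transcripts. VIL1 followed with −0.62 and −0.79, FABP1 with −0.42 and −0.99 (its mean of −0.71 became −0.062 with a floor of 6), and CDH17 with −0.41 and −0.57. These 4 absorptive markers were below 0 in both states, as were 38.4% of all genes, and CEACAM6 was too, at −0.44 and −0.27. The 38.4% is taken over all genes, among them those with a total RNA value raised to 5, which cannot be below 0 here.

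CEACAM5 and CEACAM1 were not below 0 in RBM35A− cells. CEACAM5 was at 0.53 in RBM35A− and 0.02 in RBM35A+ cells, and CEACAM1 at 0.25 and −0.00 at its representing probe set. The other CEACAM1 probe set was below the floor in polysomal RNA, so its polysomal minus total difference (log2) was −0.27 or lower in RBM35A− cells and −0.48 or lower in RBM35A+ cells. When the probe sets of CEACAM1 were averaged, its mean over both states was −0.12 in place of 0.12. The SD of 1 probe set for the mean of this comparison was 0.732, and 6 of the 7 members lay within it. Within each control transcript the 5′ probe set differed most between fractions, with means of −4.91 (beta-actin) and −2.21 (GAPDH), while the 3′ probe sets had −0.29 and −0.15. The part of this 5′ signal in the members' values was not tested.

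**Figure D3:**
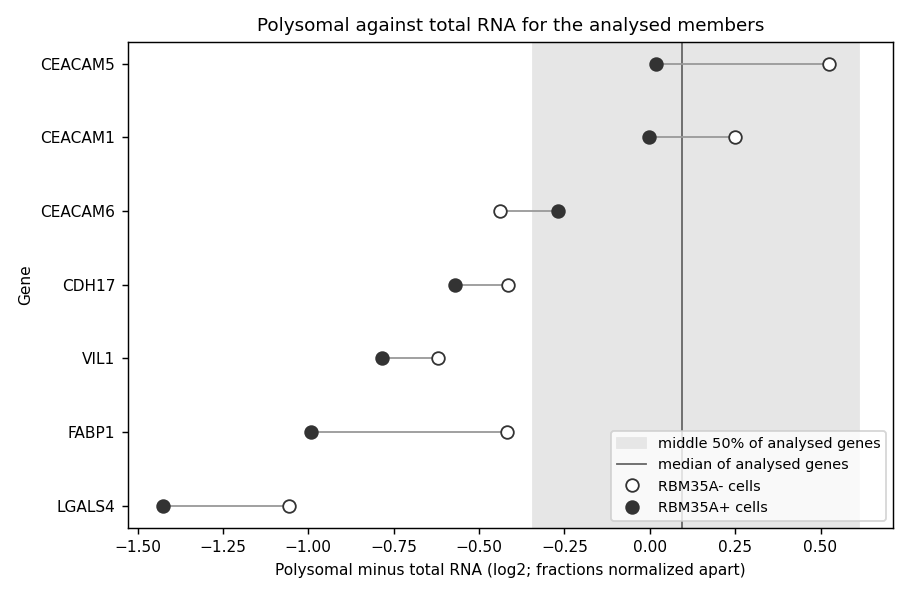
Polysomal minus total RNA (horizontal axis, log2) for the 7 analysed members (rows) in RBM35A− (open) and RBM35A+ cells (filled), 1 difference of 2 arrays per point; the grey band holds the middle 50% of the 3588 analysed genes for the mean of both states, from −0.34 to 0.61, and the line is their median of 0.09. LGALS4 lies lowest at −1.06 and −1.43, and the filled point is left of the open one for every member except CEACAM6.

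Wider lists of gut and related genes gave few further differences, and not every listed gene is particular to absorptive cells. Lists of brush border, digestive, lipid-handling, colonocyte, CEA family, galectin, cadherin and gut transcription factor genes held 111 genes on the array, of which 42 were analysed. In total RNA 2 were 1.5-fold higher (SCNN1A and LGALS9) and 1 lower (MISP), and in polysomal RNA 0 were higher and 0 lower. Their median was 0.07 in total and 0.02 in polysomal RNA, beside 0.00 and 0.01 over all genes. Over all genes, as above, 1.42% were higher and 0.613% lower in total RNA.

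Hydrolases of the brush border were nearly all unmeasured, as were ALPI, ANPEP and DPP4. Of 17 on the array 1 was analysed, the membrane metalloendopeptidase MME, which read 9.12 and 9.25 in total and 8.93 and 8.92 in polysomal RNA. Sucrase-isomaltase (SI), lactase (LCT), maltase-glucoamylase (MGAM) and the meprins MEP1A and MEP1B were below the floor on all 4 arrays. Of 14 structural brush border genes 9 were analysed, with medians of 0.08 and 0.02. The spindle and apical actin protein MISP read 8.42 and 7.66 in total RNA (−0.76), and 5.44 and the floor in polysomal RNA, so that its polysomal difference of −0.44 is a lower bound in size. ACTN4, a crosslinker of actin, was highest in total RNA (0.26) and MSN, moesin, which ties actin to the membrane, in polysomal RNA (0.31).

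Of 18 genes of lipid and retinoid absorption 5 were analysed, and FABP2, APOA1, APOA4, APOB and MTTP were below the floor. FABP6, the ileal bile acid binding protein, read 8.06 and 7.70 in total RNA (−0.37) and 8.78 and 8.55 in polysomal RNA (−0.23). Its paralogue FABP1 was higher in RBM35A+ cells in total RNA (0.64) and nearly level in polysomal RNA (0.07). FABP5 differed by 0.04 in both fractions and the lysosomal lipase LIPA by 0.14 and 0.02. Of 19 colonocyte markers 8 were analysed, while KRT20, the carbonic anhydrases CA1, CA2 and CA4, the chloride exchanger SLC26A3 and GUCA2A were below the floor. SCNN1A, a subunit of the epithelial sodium channel, read 8.67 and 9.28 in total RNA (0.61, 1.53-fold) and 10.09 and 9.94 in polysomal RNA (−0.15). The selenium-binding protein SELENBP1 differed by 0.42 and 0.34, the water channel AQP3 by −0.51 and −0.27, and the creatine kinase CKB by −0.22 and −0.37 (other probe set 0.13 and −0.34).

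Of 7 other CEA family and pregnancy glycoprotein genes on the array 0 were analysed, CEACAM7 and CEACAM3 among those below the floor. Of 7 genes on the list of other galectins and a galectin-binding protein 3 were analysed. LGALS9 read 7.31 and 8.20 in total RNA (0.88, 1.84-fold), where its other probe set was below the floor. In polysomal RNA LGALS9 differed by 0.02, where the other probe set gave 0.40. LGALS3 differed by 0.03 and 0.19 and the galectin-binding glycoprotein LGALS3BP by 0.21 and 0.28. Of 14 other cadherins 7 were analysed. The protocadherin PCDH1 differed by 0.24 and 0.35, and the desmosomal cadherin DSG2 by 0.09 in total and −0.50 in polysomal RNA. DSC2, its desmosomal partner, was at −0.20 and at −0.40, the latter a lower bound in size because the RBM35A+ array was at the floor.

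Of 15 gut transcription factors on the array 9 were analysed and 0 were past 1.5-fold in either fraction. CDX2, the intestinal master regulator, read 9.76 and 9.80 in total and 9.29 and 9.00 in polysomal RNA (0.05 and −0.29; other probe set 0.11 and −0.13). KLF4, a factor of post-mitotic gut epithelium, differed by 0.17 in total RNA and was below the floor in polysomal RNA. The vitamin D receptor VDR differed by −0.33 and 0.10, and its other measured probe set by −0.09 and −0.09.

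**Figure D4:**
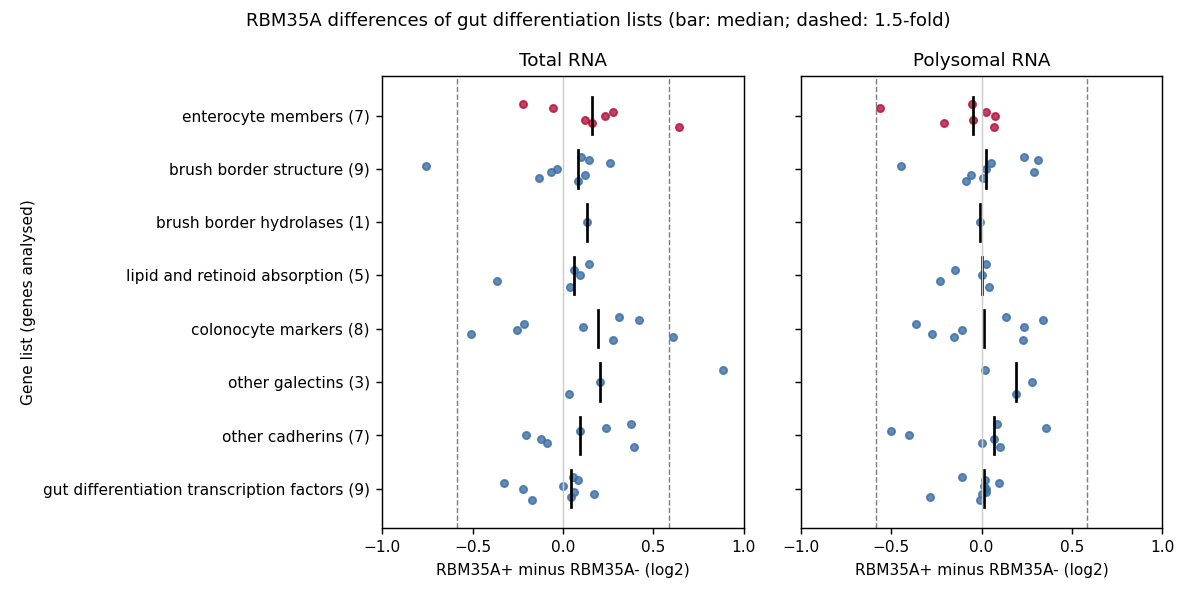
RBM35A+ minus RBM35A− (horizontal axes, log2) in total RNA (left) and polysomal RNA (right) for the analysed genes of each list (rows, number analysed in brackets), 1 point per gene, the 7 members in red; bars are medians and dashed lines mark 1.5-fold. FABP1 (0.64), SCNN1A (0.61) and LGALS9 (0.88) lie beyond the line in total RNA on the higher side and MISP (−0.76) on the lower, and no plotted gene (0) does in polysomal RNA. Genes at the floor on both arrays of a fraction (FOXA2 in total RNA; CDH3 and KLF4 in polysomal RNA) are drawn at 0, although their difference is unknown.

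Markers of other gut cell types also differed between the total RNA arrays. Of 8 goblet markers on the array 5 were analysed, and 2 were 1.5-fold higher in total RNA: the secreted mucin MUC2 (6.54 to 8.00, 1.46) and the mucus protein FCGBP (5.91 to 6.66, 0.75), beside the 1.42% of all genes. The other 3 were below 0 there, with TFF3 at −0.21 (other measured probe sets 0.10 and 0.54), SPINK4 at −0.12 and AGR2 at −0.21, and the list median was −0.12. In polysomal RNA 0 goblet markers were 1.5-fold higher, with −0.07 for MUC2 and 0.25 for FCGBP. The summed level of the goblet list was 12.58 and 12.44 in total RNA and 13.31 and 13.10 in polysomal RNA. It is the log2 of summed unlogged values and so follows mostly TFF3, which read 12.31 and 12.10 in total and 12.91 and 12.64 in polysomal RNA. CLCA1, ZG16 and SPDEF were below the floor. Of 7 crypt stem markers 4 were analysed, and LGR5 and OLFM4 were below the floor. ASCL2 was at −0.64 in total RNA and at the floor on both polysomal arrays, and EPHB3 was at −0.47 and −0.93. SOX9 was at 0.07 and −0.12, and CD44 at −0.18 and 0.10. Other CD44 probe sets above the floor in total RNA were at 0.60, −0.29, −0.28 and −0.48 there. In polysomal RNA they were at 0.75, 0.29 and 0.04, with the last below the floor. The summed level of the crypt stem list was 12.44, 12.23, 11.92 and 11.25 on the total RBM35A−, total RBM35A+, polysomal RBM35A− and polysomal RBM35A+ arrays. It follows mostly EPHB3 and SOX9, the genes of highest level on that list. Of 5 Paneth markers PLA2G2A alone was analysed (−0.71 and −0.16; other probe set −0.29 and 0.02). In bulk RNA, more cells of a type and more RNA per cell cannot be told apart, and the part of these cell types in the FABP1 value was not tested.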

How the data were processed

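RNA of LS180 cells was measured on 4 Affymetrix HG-U95Av2 arrays, with 10 µg of RNA per sample per the labels. The deposited values are log2; the authors computed them by GCRMA according to the submitters' processing notes (version not given in the sources used here). Sorted values agreed within 4.29e-06 between the total and 6.61e-06 between the polysomal arrays, so each pair had been quantile normalized apart. Such a step removes a shift that covers most genes of an array. The number of arrays limits the precision.

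Probe sets were named from the platform annotation and updated by gene ID through a RefSeq table (GRCh38.p14), used for names, neighbours and upstream sequence. Of 12626 probe sets 67 were controls; probe sets with several symbols (546) or none were left out. For each of 8225 genes the probe set of highest mean was taken, values under 5 were set to 5, and genes reaching 5 on any array (3588) were analysed. Differences were counted at 1.5-fold (2-fold between fractions). The members, lists and rules were chosen with earlier results of these data known. Named were all members and, from each list, genes at 1.5-fold and the highest and lowest in each fraction; of the marker lists, genes at 1.5-fold. The model log2 ~ fraction + state was fitted in R 4.3.3 by the lmFit and eBayes functions of limma 3.58.1, with Benjamini-Hochberg adjustment across the analysed genes. The code was also run on simulated data with equal, independent noise on each array. That run does not check the model on data like these. Upstream windows were aligned globally with Biopython 1.88. Alternatives were other floors, summaries of probe sets, exclusion of probe sets of shared sequence, joint quantile normalization, removal of the trend on level and another fold.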

Additional observations from a re-analysis of the deposited data

Results flagged for a closer look

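For 2 members the RBM35A difference had opposite signs in the total and polysomal arrays, as it did for 34.4% of all 3588 analysed genes. Genes at the floor on both arrays of a fraction are among these 3588 and cannot have opposite signs. LGALS4 was at 0.16 in total and −0.21 in polysomal RNA, which is 0.838 and 1.08 times the SD of 1 probe set. VIL1 was at 0.12 and −0.047, within that SD in both fractions. With 1 array per group this difference between fractions was not tested.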

How the results depend on the processing

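Of 157 recomputed summary values (medians and counts of the members and lists) 9 moved, meaning a median by more than the SD of 1 probe set or a count by more than 1.5 times; of 209 recomputed values of single members 4 moved by more than that SD. No value past its fold threshold (0) changed sign. The SD between fractions is wide (0.732), and within it the polysomal minus total value of FABP1 went from −0.71 to −0.062 with a floor of 6 and that of CEACAM1 from 0.12 to −0.12 with averaged probe sets. With no floor and no filter, where all 10 members count, the members' median went from 0.16 to 0.063 in total RNA and from −0.49 to −0.18 for polysomal minus total. With a floor of 6 the count of members higher in total RNA was 0, because FABP1 read 0.12 (and −0.12 for its difference of differences), and CEACAM1 was no longer analysed. Counted at 2-fold it was 0 too, and the lists had 0 genes higher and 0 lower. When the probe sets of a gene were averaged, 1 list gene was higher in total RNA, and CEACAM5 read −0.28 in polysomal RNA and −0.25 for its difference of differences. With a floor of 4, and with no floor and no filter, 1 list gene was lower in polysomal RNA. Without probe sets of shared sequence the count of members 2-fold lower in polysomal than in total RNA was 0, since LGALS4 has no other probe set. FABP1, VIL1, CDH17 and CEACAM6 were still below 0 in that setting. With all probe sets, the count at 1.5-fold was 3. With limma, 0 members were called under each of the 4 alternatives run, and 0 or 1 had an unadjusted p under 0.05. No paired analysis was possible because the labels give no replicate numbers and each group had 1 array. Genes near the floor, FABP1 and CEACAM1 among the members, have the least signal over background.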

Other observations

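The probe sets of the E-cadherin gene CDH1, a marker of epithelium, disagreed in sign between states. In total RNA the representing probe set read 10.07 in RBM35A− and 10.46 in RBM35A+ cells (0.39), while the other read 7.54 and 6.60 (−0.94). In polysomal RNA the former read 9.54 and 9.65 and the latter 2.67 on both arrays, below the floor. The authors' probe positions were not used here.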
